A study of Chlamydomonas reinhardtii with 45 samples.

Results

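Transcripts of the intraflagellar transport (IFT) particle of the green alga Chlamydomonas reinhardtii were followed through 24 h of salt or sugar stress. The members were fixed by gene identifier: 5 genes of the IFT-B core (IFT-B1), which are IFT88 (Cre07.g335750), IFT81 (Cre17.g723600), IFT74 (Cre01.g027950), IFT52 (Cre04.g219250) and IFT46 (Cre05.g241637); 3 genes of the peripheral IFT-B set (IFT-B2), which are IFT172 (Cre17.g703900), IFT80 (Cre03.g204150) and IFT57 (Cre10.g467000); and 2 genes of IFT-A, which are IFT140 (Cre08.g362650) and IFT122 (Cre01.g065822). Of these 10 genes, 8 had a row in the expression table, 1 transcript each, among 19526 transcripts of 17737 genes. No row was found for IFT46 and IFT122, which were not analysed here. All 8 transcripts passed the filter on low values and none was at 0 in any library. IFT140 was therefore the only IFT-A gene measured.

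IFT is the shuttle that builds and maintains cilia, which in Chlamydomonas are the pair of flagella that the cell swims with. Trains of IFT-B and IFT-A particles are carried to the tip by kinesin-2 and back to the cell body by cytoplasmic dynein, with IFT-B needed mainly for the outward and IFT-A for the return journey. The particle was first purified from Chlamydomonas flagella, and the alga's transcripts for flagellar proteins are known to rise together when flagella are lost and regrown.

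All libraries came from vegetative, haploid wild-type cells of 1 strain, CC-4533, grown in acetate medium under low continuous light. Polyadenylated RNA was sequenced from cells held in 100 mM NaCl or in 300 mM mannitol for 15 min, 30 min, 60 min, 4 h, 6 h and 24 h (3 libraries in each of the 12 treated groups), and from untreated cultures at 24 h (4 libraries) and 0 h (5 libraries), 45 libraries in all. The study's methods describe the replicates as biological, from algae grown on different days, and the time points of a treatment as drawn from the same flask. No source used here says which library came from which day. The untreated cultures at 0 h serve as the common control of all 12 treated groups, so that these comparisons share libraries.

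The table held TPM (the number of transcripts in 1000000, a share of each library that is already divided by transcript length), from which read depth cannot be known. One transcript without annotation here, g15293.t1, took 5.33 to 52.3% of a library, and a change in its share moves the TPM of all others. Levels are therefore given as scaled TPM, the deposited TPM divided by a median-ratio factor per library, and each value is one library unless it is marked as a mean. A scaled TPM remains relative to the other transcripts, so that fewer IFT transcripts per cell and a larger pool of other transcripts cannot be told apart. A transcript was called when the adjusted p was below 0.01 and the fold change above 2 (log2 fold change beyond 1 in either direction). Counts of members at an unadjusted p under 0.05 are given below without the share of all transcripts, so they do not show whether the members stand out. By their library numbers the libraries form a first series of 31 and a second series of 14, and the second holds 1 library of every group (replicate 3 of the treated groups and replicate 5 of the controls).

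**Figure D1:**
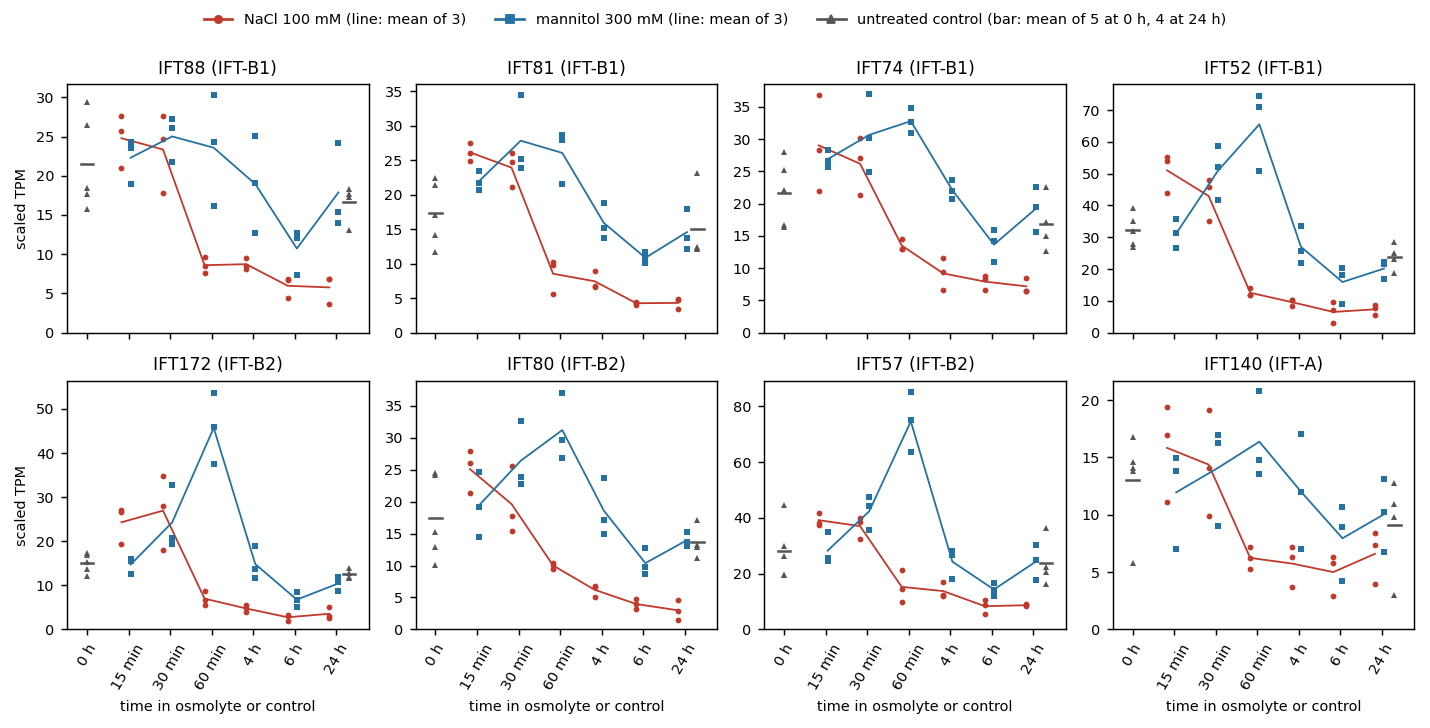
Scaled TPM (y axis) of the 8 measured IFT transcripts by time (x axis). Each point is 1 library, lines join the means of 3 libraries in NaCl and in mannitol, and bars mark the means of the untreated controls. In NaCl every mean lies below its 0 h control from 60 min on, while in mannitol the means of IFT172, IFT57 and IFT52 stand highest at 60 min, at 45.7, 74.6 and 65.5 scaled TPM.

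In untreated cells the IFT transcripts were of moderate abundance. At 0 h the means ran, from the highest, 32.2 ± 5.11 for IFT52, 27.97 ± 10.3 for IFT57, 21.7 ± 5.13 for IFT74, 21.5 ± 5.997 for IFT88, 17.4 ± 6.61 for IFT80, 17.3 ± 4.58 for IFT81, 15.1 ± 2.19 for IFT172 and 13 ± 4.18 scaled TPM for IFT140 (SD, n = 5). Each neighbouring pair in this order overlapped between libraries, while the 5 libraries of IFT52, which spanned 26.8 to 39.3, lay above all 5 libraries of IFT172, which spanned 12.2 to 17.4. The sum over the 8 members was 131 ± 6.15 scaled TPM in untreated cells at 24 h (SD, n = 4) and 166 ± 30.3 at 0 h (SD, n = 5). None of the 8 members was called between the 24 h and 0 h controls (0.718% of all 13651 transcripts tested were called lower), and 8 of 8 had a negative log2 fold change, with a median of -0.30 against -0.00048 over all transcripts. At an unadjusted p under 0.05, 1 member was lower at 24 h. Same-numbered controls deviated together, but replicates 3 and 4 more so with another number (r 0.208 and 0.166, best other 0.211 and 0.309). With the number as a block 6 members were lower at an unadjusted p under 0.05 and none was called. The smallest adjusted p was 0.022, for IFT52.

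At the early times in NaCl no member passed the test. At 15 min, 0 of 8 members were called (3% of all transcripts were called higher), but all 8 log2 fold changes were positive, with a median of 0.55 beside -0.032 over all transcripts tested. IFT52, a core subunit without which Chlamydomonas forms no flagella, had 53.9, 55.3 and 43.96 scaled TPM at 15 min of NaCl, against 26.8, 35.02, 39.3, 31.99 and 27.98 at 0 h. These ranges did not overlap, and the log2 fold change was 0.65 ± 0.17 (SE; limma, Benjamini-Hochberg adjusted p = 0.0373). For 3 of 8 members all NaCl libraries lay above all 0 h libraries at this time, which 10.2% of all transcripts did, and the same number had an unadjusted p under 0.05.

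At 30 min in NaCl again none of the 8 was called (11.8% of all transcripts were called higher), although 2 members had an unadjusted p under 0.05. The median was 0.34, while the median of all transcripts was -0.11. IFT172, which acts at the flagellar tip where outward trains turn into returning ones, had 27.9, 34.9 and 18.03 scaled TPM in NaCl at 30 min, against 12.2, 16.9, 17.4, 13.8 and 15.3 at 0 h, a log2 fold change of 0.76 ± 0.22 (SE; adjusted p = 0.0156). All 8 were positive at 30 min with scaled TPM, but the members' median turned to -0.41 with TPM as deposited and to -0.018 with quantile normalization, so that no direction holds across these scalings.

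Between 30 and 60 min in NaCl the IFT transcripts dropped. Of the 8 members, 5 fell (8.72% of all transcripts were called lower), which were IFT88, IFT81, IFT52, IFT172 and IFT57, and the median log2 fold change was -1.30, beside -0.083 over all transcripts. IFT172 had 5.64, 8.67 and 6.63 scaled TPM at 60 min, against 27.9, 34.9 and 18.03 at 30 min, a log2 fold change of -1.78 ± 0.26 (SE; adjusted p = 0.00109). IFT52 had 11.8, 11.8 and 14 at 60 min, against 47.96, 45.8 and 35.2 at 30 min (-1.69 ± 0.18; adjusted p = 2.61e-04). In each of the 8 members all 60 min libraries lay below all 30 min libraries, a separation shown by 26.7% of all transcripts. Without NaCl 30 min replicate 2, 3 members were called.

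The 3 members that did not pass in this step were IFT74, IFT140 and IFT80. IFT74, the partner of IFT81 in binding tubulin cargo, had a log2 fold change of -0.89 ± 0.18 with an adjusted p of 0.00489, just short of the fold limit. IFT140, a large IFT-A core subunit, had -1.05 ± 0.25 with an adjusted p of 0.0103. IFT80 had the smallest step, -0.88 ± 0.21 with an adjusted p of 0.0108, and missed both limits. Replicate numbers paired these libraries, and with the replicate number as a block IFT140 passed too (adjusted p = 0.00189), which made 6 members.

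Set against the 0 h control, members were lower in NaCl from 60 min to 24 h. At 60 min 3 of 8 members were called lower (15.4% of all transcripts), namely IFT88, IFT52 and IFT172. The count was 8 with TPM as deposited and 5 with quantile normalization, for which the share of all transcripts is not given here. As deposited the typical transcript was itself lower at 60 min, with median-ratio factors of 0.685 to 0.826 against 1.07 to 1.65 at 0 h. At 4 h it was 6 of 8 (5.46%), at 6 h 7 of 8 (5.14%) and at 24 h 7 of 8 (4.79%). The medians were -0.92, -1.16, -1.72 and -1.75 at 60 min, 4 h, 6 h and 24 h, with all-transcript medians between -0.089 and -0.0011. No member was called higher in NaCl at any of the 6 times. The count at 4 h was 2 without NaCl replicate 2 and 3 without NaCl replicate 1 or 3 or control replicate 2 or 3.

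**Figure D2:**
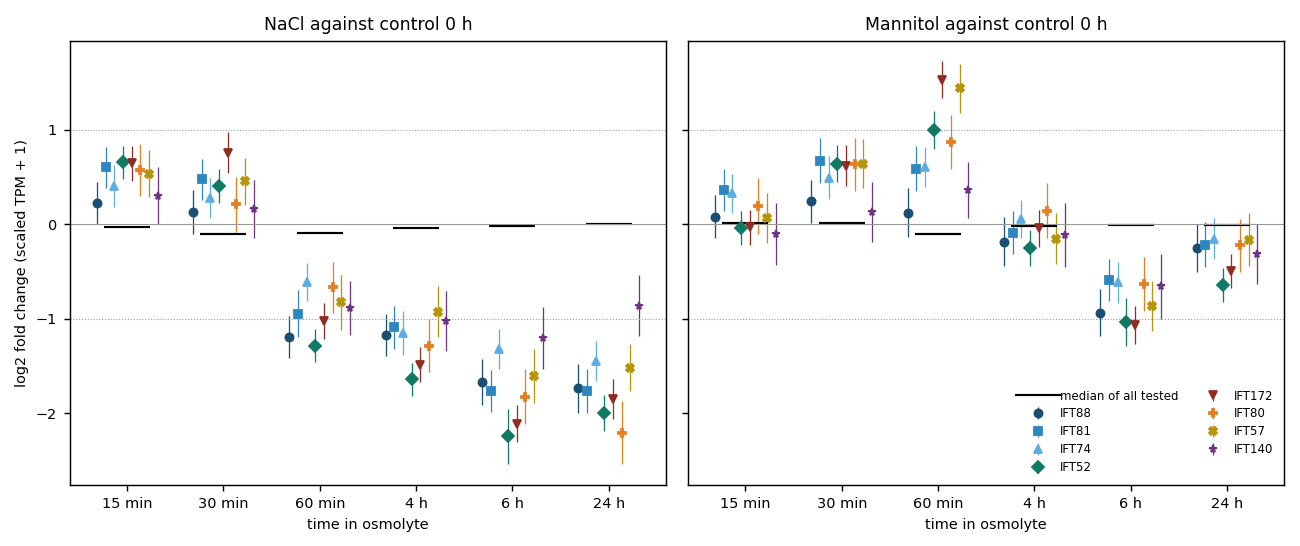
Log2 fold change of each member against control 0 h (y axis, on scaled TPM + 1) by time in NaCl (left) or mannitol (right), with SE as bars; black dashes mark the median of all 13651 transcripts tested and dotted lines the fold limit of 2. At 24 h in NaCl the members lie between -2.21 and -0.86, and at 60 min in mannitol between 0.12 and 1.53.

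Among the core subunits, IFT52 fell most in NaCl. It had 9.57, 7.05 and 2.91 scaled TPM at 6 h and 8.68, 7.699 and 5.62 at 24 h of NaCl, against 26.8, 35.02, 39.3, 31.99 and 27.98 in the 0 h control. No treated library at these times reached the lowest control library. The log2 fold changes were -2.25 ± 0.29 at 6 h (SE; adjusted p = 3.73e-04) and -2.0 ± 0.19 at 24 h (adjusted p = 2.93e-05).

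IFT74 fell least of the called members at 24 h. It had 6.52, 6.51 and 8.499 scaled TPM in NaCl at 24 h, against 16.4, 25.2, 27.98, 16.7 and 22.2 at 0 h, a log2 fold change of -1.45 ± 0.21 (SE; adjusted p = 5.75e-04). Its partner IFT81 had 4.82, 4.71 and 3.39 against 11.7, 16.98, 21.3, 14.2 and 22.4 (-1.76 ± 0.23; adjusted p = 2.82e-04). IFT88, whose loss in Chlamydomonas leaves cells without flagella, was one of the 3 members already called at 60 min and had a log2 fold change of -1.74 ± 0.26 at 24 h (adjusted p = 6.19e-04). For all 4 measured core members the NaCl and the 0 h libraries did not overlap at 60 min, 4 h, 6 h or 24 h. Of all transcripts, 27.5%, 17%, 15.9% and 14.9% lay wholly below the 0 h libraries at these times.

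Of the peripheral IFT-B members, IFT172 and IFT80 fell to the lowest levels of any member. IFT80 had 2.899, 4.63 and 1.45 scaled TPM in NaCl at 24 h, against 15.3, 24.2, 24.5, 12.9 and 10.1 at 0 h, the largest fall at that time among the members (-2.21 ± 0.33, SE; adjusted p = 6.90e-04). IFT172 had 2.99, 3.35 and 1.92 at 6 h of NaCl, against 12.2, 16.9, 17.4, 13.8 and 15.3 at 0 h (-2.11 ± 0.20; adjusted p = 4.47e-05). IFT57, a peripheral subunit, passed later than the others, with log2 fold changes of -0.83 ± 0.29 at 60 min and -0.93 ± 0.27 at 4 h that were not called (adjusted p = 0.03 and 0.0246) and -1.61 ± 0.29 at 6 h that was (adjusted p = 0.0024).

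IFT140 was called in none of the 12 comparisons with control 0 h. It had 5.83, 6.28 and 2.899 scaled TPM in NaCl at 6 h, against 14.1, 14.6, 16.8, 13.8 and 5.82 at 0 h, and its log2 fold change was -1.204 ± 0.33 (SE; adjusted p = 0.0203). The control library at 5.82, which is replicate 5 and of the second series, stood far below the other 4 and overlapped the treated range. Without it the log2 fold change was -1.45 and the adjusted p 0.00128, and IFT140 was then called lower at 60 min, 4 h, 6 h and 24 h of NaCl. Against the 24 h control it was not called with or without that control's second-series library (-0.33 with it, adjusted p = 0.624, and -0.72 without it, adjusted p = 0.0598).

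The late fall was also seen against a control of the same age. In NaCl at 24 h against untreated cells at 24 h, 7 of 8 members were called lower (4.77% of all transcripts), IFT140 being the exception, with a median of -1.48 beside -0.0015 over all transcripts. In those 7 members every NaCl library lay below every control library, as in 17.2% of all transcripts. IFT80 differed most, with 2.899, 4.63 and 1.45 scaled TPM in NaCl against 13.2, 12.9, 17.2 and 11.2 in the control (-1.94 ± 0.29, SE; adjusted p = 0.00124), and IFT74 least among the called (-1.11 ± 0.22; adjusted p = 0.00585). The other 5 called members, IFT88, IFT81, IFT52, IFT172 and IFT57, lay between -1.61 and -1.30. Leaving out 1 library at a time left 4 to 6 of the 8 called, with 4 after leaving out NaCl replicate 2 or control replicate 2.

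From 60 min to 4 h in NaCl no recovery was called. None of the 8 was called in this step, where 5.18% of all transcripts were called higher and 4.18% lower. At these shares 0 calls among 8 do not set the members apart. The median was -0.25, with 2 members lower at an unadjusted p under 0.05. IFT80 was the nearest to a call, with 6.83, 6.65 and 5.13 scaled TPM at 4 h, against 9.52, 10.3 and 10.2 at 60 min (-0.62 ± 0.19, SE; adjusted p = 0.0455). With TPM as deposited the median of the step was 0.036. Against control 0 h all 7 members other than IFT140 lay below every control library at 6 h (15.9% of all transcripts did) and at 24 h (14.9%), and 7 of 8 did so at 4 h (17%).

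In mannitol no member passed the test before 60 min. At 15 min none of the 8 was called, nor was any transcript of the whole table (0%), and the median was 0.072 with 0 members at an unadjusted p under 0.05. At 30 min none was called either (0.33% of all transcripts were called higher), but all 8 log2 fold changes were positive with a median of 0.63, and 6 members had an unadjusted p under 0.05. In 3 of 8 members all mannitol libraries lay above all 0 h libraries at 30 min, as in 6.21% of all transcripts. IFT81 was highest in fold among them, with 23.9, 25.1 and 34.4 scaled TPM in mannitol, against 11.7, 16.98, 21.3, 14.2 and 22.4 at 0 h (0.67 ± 0.24, SE; adjusted p = 0.176).

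At 60 min in mannitol 2 of 8 members, IFT172 and IFT57, rose past the limits (17.6% of all transcripts were called higher). Among so few members this count does not set them apart from other transcripts. IFT80, a peripheral IFT-B subunit like these 2, was not called and rose less than the core subunit IFT52. IFT172 had 45.9, 53.7 and 37.5 scaled TPM in mannitol, against 12.2, 16.9, 17.4, 13.8 and 15.3 at 0 h, and the lowest treated library was above the highest control library. The log2 fold change was 1.53 ± 0.20 (SE; adjusted p = 5.41e-05), or 2.89-fold. IFT57 had 75.2, 63.6 and 85.1 against 19.5, 26.4, 29.8, 19.6 and 44.6 at 0 h (1.44 ± 0.26; adjusted p = 7.19e-04).

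The core subunit IFT52 narrowly missed the fold limit at that time, with a log2 fold change of 0.996 and an adjusted p of 0.00152. The remaining 5 members had log2 fold changes from 0.12 for IFT88 to 0.87 for IFT80, and the median of all transcripts was -0.10. In 5 of 8 members the treated libraries lay above all control libraries, as in 24.2% of all transcripts. With TPM as deposited, which lowered the median of all transcripts to -0.55, IFT172 and IFT57 were no longer called (log2 fold change 0.87 and 0.77), and IFT88, IFT81, IFT74 and IFT140 changed sign; with quantile normalization IFT172 and IFT57 were still called and IFT88 changed sign.

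From 30 to 60 min in mannitol no member was called (11% of all transcripts were called higher), and the members' median was 0.23 with scaled TPM, -0.33 with TPM as deposited and -0.10 with quantile normalization. IFT172 and IFT57 had the 2 unadjusted p under 0.05, with log2 fold changes of 0.91 ± 0.29 (SE; adjusted p = 0.033) and 0.80 ± 0.26 (adjusted p = 0.0354). The height reached at 60 min was not held. In mannitol at 4 h against 60 min, 3 of 8 members fell (14% of all transcripts were called lower), and these were IFT52, IFT172 and IFT57.

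IFT57 had 18.2, 27.9 and 26.7 scaled TPM at 4 h of mannitol, against 75.2, 63.6 and 85.1 at 60 min (-1.59 ± 0.25, SE; adjusted p = 7.81e-04). IFT172 had 13.7, 18.99 and 11.8 at 4 h, against 45.9, 53.7 and 37.5 at 60 min (-1.57 ± 0.26; adjusted p = 0.00102). The 4 h libraries of both members overlapped those of the 0 h control. IFT88 showed the smallest step, -0.31 ± 0.31 (adjusted p = 0.473). With TPM as deposited 1 member was called in this step.

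Later in mannitol the members were near or below the control. At 4 h none was called against control 0 h (1.36% of all transcripts were called lower), with a median of -0.10 and 0 members at an unadjusted p under 0.05. At 6 h none was called (0.901%), but all 8 log2 fold changes were negative with a median of -0.76, 6 members had an unadjusted p under 0.05, and in 5 of 8 all mannitol libraries lay below all control libraries, as in 9% of all transcripts. IFT172 was nearest to a call at 6 h, with 8.39, 6.74 and 5.14 scaled TPM in mannitol, against 12.2, 16.9, 17.4, 13.8 and 15.3 at 0 h (-1.07 ± 0.20, SE; adjusted p = 0.0113).

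At 24 h in mannitol no member passed the test against either control. None of the 8 was called against control 0 h (0.242% of all transcripts were called lower), with a median of -0.24 and 2 members, IFT52 and IFT172, at an unadjusted p under 0.05. In both of these all mannitol libraries lay below all 0 h libraries, as in 6.79% of all transcripts. Their log2 fold changes were -0.65 ± 0.18 (SE; adjusted p = 0.0795) and -0.49 ± 0.18 (adjusted p = 0.17). Against untreated cells of the same age none was called either (0.747% of all transcripts were called higher), with a median of 0.051, a range from -0.26 to 0.22 and 0 members at an unadjusted p under 0.05. IFT52, for example, had 22.2, 21.5 and 16.8 scaled TPM in mannitol at 24 h, against 24.9, 28.4, 23.02 and 18.7 in the 24 h control.

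**Figure D3:**
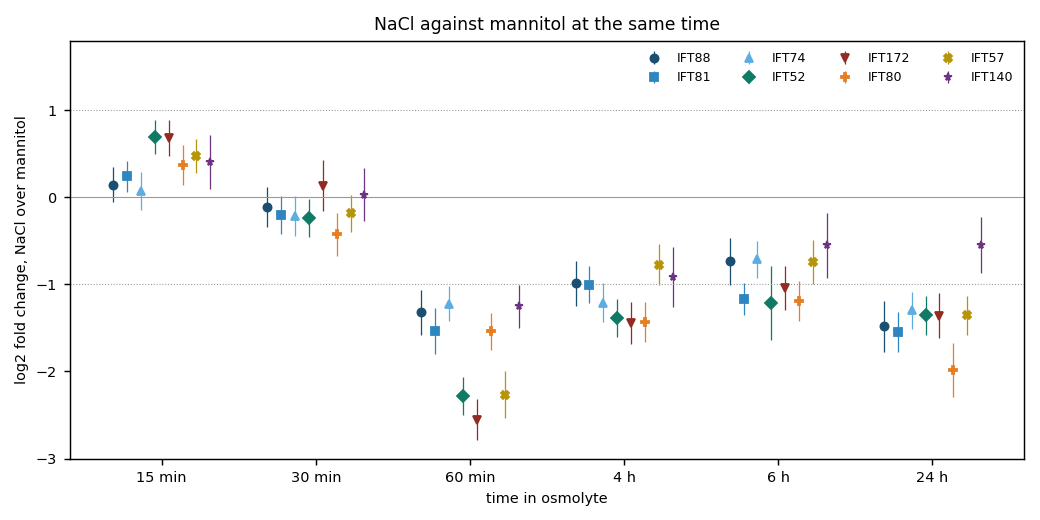
Log2 fold change of NaCl over mannitol at the same time (y axis) for each member, with SE as bars; dotted lines mark the fold limit of 2. All 8 members lie below -1 at 60 min, between -2.55 and -1.22, after values from -0.42 to 0.14 at 30 min.

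Set directly against each other, the 2 osmolytes differed in all 8 members at 60 min. At 15 min no member was called between NaCl and mannitol (2.12% of all transcripts were called higher), with a median of 0.39, 3 members higher at an unadjusted p under 0.05, and 4 of 8 with all NaCl libraries above all mannitol libraries, as in 12.6% of all transcripts. At 30 min none was called (2.97% of all transcripts were called lower), with a median of -0.19 and 0 members at an unadjusted p under 0.05. At 60 min all 8 members were lower in NaCl than in mannitol (14.1% of all transcripts were called lower), with a median of -1.54 beside -0.11 over all transcripts. In all 8 no NaCl library reached the lowest mannitol library, as in 29.3% of all transcripts.

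The 2 largest and 2 smallest of these differences at 60 min show their range. IFT172 had 5.64, 8.67 and 6.63 scaled TPM in NaCl, against 45.9, 53.7 and 37.5 in mannitol, 5.87-fold lower (-2.55 ± 0.24, SE; adjusted p = 4.92e-05). IFT52 had 11.8, 11.8 and 14 in NaCl against 74.5, 71.1 and 50.97 in mannitol (-2.28 ± 0.22; adjusted p = 6.04e-05). Every member was lower in NaCl, by 2.33-fold for IFT74 up to the 5.87-fold of IFT172.

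IFT74 had 12.9, 13.04 and 14.6 scaled TPM in NaCl at 60 min, against 32.7, 30.9 and 34.8 in mannitol (-1.22 ± 0.20, SE; adjusted p = 9.23e-04). IFT140 had 6.22, 7.23 and 5.27 in NaCl against 13.5, 20.8 and 14.8 in mannitol (-1.25 ± 0.25; adjusted p = 0.00264), the only call for this gene in the 25 comparisons fitted without a block. With the library of either series the direction was the same: the members' median was -1.64 over the first series and -1.37 over the single pair of second-series libraries.

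After 60 min the count of calls between the osmolytes depended on the fit. At 4 h none of the 8 was called (0.315% of all transcripts were called lower), though all 8 had an unadjusted p under 0.05 and the median was -1.10. Same-numbered libraries deviated together, but replicates 1 and 2 no more than with another number (r 0.339 and 0.325, best other 0.339 and 0.347). Replicate 3, of the second series, stood apart (0.632, best other -0.450). With the number as a block 5 of 8 were called lower (2.16% of all transcripts). Among them were IFT80 at an adjusted p of 0.00155 and IFT172 at 0.0022. In 7 of 8 members all NaCl libraries lay below all mannitol libraries at 4 h, as in 13.5% of all transcripts. IFT80, for example, had 6.83, 6.65 and 5.13 scaled TPM in NaCl at 4 h, against 17.2, 23.7 and 14.9 in mannitol.

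At 6 h none was called without the block (0.125% of all transcripts were called lower) and 4 of 8 with it (1.27%), which were IFT81, IFT52, IFT172 and IFT80, and the median was -0.89. At 6 h 7 members had an unadjusted p under 0.05. At 24 h 5 of 8 were called lower in NaCl without the block (2.02% of all transcripts), which were IFT81, IFT74, IFT52, IFT80 and IFT57, and 7 of 8 with it (3.98%), where IFT88 and IFT172 were added. The median at 24 h was -1.36.

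IFT80 differed most at 24 h, with 2.899, 4.63 and 1.45 scaled TPM in NaCl, against 15.3, 13.6 and 13.1 in mannitol (-1.98 ± 0.31, SE; adjusted p = 0.00548). IFT140 differed least and was not called, with 8.43, 7.38 and 3.98 in NaCl against 10.3, 13.1 and 6.77 in mannitol (-0.55 ± 0.32; adjusted p = 0.31). The 5 calls at 24 h rest on 3 libraries a group: leaving out any 1 of the 6 left 0 to 2, with 0 after leaving out NaCl replicate 1, mannitol replicate 1 or mannitol replicate 2.

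The members did not all move by the same amount. The highest group mean divided by the lowest was 16.6 for IFT172, 10.4 for IFT80, 10.1 for IFT52 and 8.96 for IFT57, against 6.52 for IFT81, 4.57 for IFT74, 4.34 for IFT88 and 3.27 for IFT140. The lowest mean was in NaCl at 6 h or 24 h for every member. The highest was in mannitol at 60 min for 6 members and in mannitol at 30 min for IFT88 and IFT81.

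A ratio of 2 transcripts within a library does not depend on how the library is scaled. IFT172 and IFT140 had the widest and the narrowest range of group means, so that their ratio was bound to move. IFT172 over IFT140 had a median of 2.59 in mannitol at 60 min, with libraries from 2.53 to 3.39. At 0 h the median was 1.04, with libraries from 0.865 to 2.64, so that 1 control library reached the mannitol range. The 6 NaCl groups had, in order of time, medians of 1.598, 1.82, 1.2, 0.779, 0.533 and 0.638. All 3 libraries of NaCl at 6 h and all 3 at 24 h had a lower ratio than any 0 h library. How often pairs of other transcripts did so is not given here. The ratio 2.64 at 0 h and the ratio 3.89 at 24 h, the highest of each control, both came from the second series, in which IFT140 was low. Pairs within IFT-B moved too. IFT57 over IFT88 had medians of 1.13 at 0 h, 3.10 in mannitol at 60 min and 1.33 in NaCl at 24 h. For IFT52 over IFT88 these were 1.49, 3.07 and 1.28, and for IFT80 over IFT74 0.875, 0.907 and 0.444. The ratio of IFT172 to IFT140 by itself does not show a shift of IFT-B against IFT-A.

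**Figure D4:**
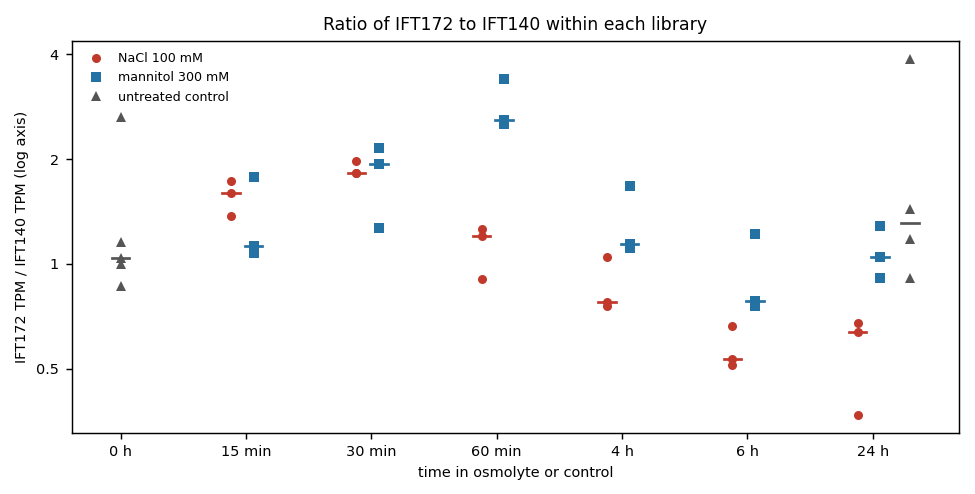
TPM of IFT172 divided by TPM of IFT140 in each library (y axis, log scale) by time (x axis), with a bar at each group's median. The ratio has a median of 2.59 in mannitol at 60 min and 0.533 in NaCl at 6 h, against 1.04 in the 0 h control.

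The order of levels was not the same in every group. In mannitol at 60 min IFT57 was highest with a mean of 74.6 ± 10.8 scaled TPM (SD, n = 3), followed by IFT52 with 65.5 ± 12.7 and IFT172 with 45.7 ± 8.11, each overlapping its neighbour. The lowest library of IFT172 was above the highest of IFT74, and the members followed as IFT74, IFT80, IFT81, IFT88 and IFT140, at means from 32.8 to 16.4, with overlap between neighbours. In NaCl at 24 h the order was IFT57, IFT52, IFT74, IFT140, IFT88, IFT81, IFT172 and IFT80, at means from 8.68 ± 0.461 to 2.995 ± 1.59, and each pair of neighbours overlapped. IFT140 was thus lowest at 0 h and at 60 min of mannitol and stood at rank 4 in NaCl at 24 h.

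The library series left its own mark on single members. In 13 of 14 groups the second-series library of IFT80, and likewise of IFT140, lay below all first-series libraries of its group, and the same held in 11 groups for IFT172 and IFT88 and in 10 for IFT52. IFT57 went the other way, with the second-series library above all others in 11 groups, and so did IFT81 in 9 and IFT74 in 8. How often other transcripts did so is not given here. Since every group holds 1 second-series library, the series is not confounded with the treatments. The first series alone, a subset chosen after seeing the data, gave 7, 8 and 7 members lower in NaCl at 4 h, 6 h and 24 h against control 0 h. It gave 7 of 8 both for NaCl against control and for NaCl against mannitol at 24 h. The share of all transcripts called in that subset is not given here. Between the single second-series libraries all 8 members were lower in NaCl at 4 h, 6 h and 24 h than at 0 h, with medians of -1.19, -1.88 and -2.16. At 60 min of NaCl against 0 h 7 of 8 were lower (median -0.88, highest 0.0069). In NaCl at 24 h against the 24 h control it was also 7 of 8 (median -1.73, highest 0.30).

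Across the 14 group means the members followed one course. Each member's profile of log2(scaled TPM + 1) correlated with the mean profile of the other 7 at Pearson's r from 0.960 for IFT140 to 0.994 for IFT52, and the 28 pairs had r from 0.914 to 0.989 with a median of 0.959, as a description over groups that share libraries, flasks and scaling. Among 6486 other transcripts with a mean of at least 5 scaled TPM, the median r with the members' mean profile was -0.036 and 1.804% lay above 0.9. The 5 most like it were Cre12.g506000.t1.2 (r = 0.990), g9777.t1 (0.990), g11546.t1 (0.990), Cre12.g511050.t1.2 (0.988) and Cre05.g242550.t1.2 (0.984), none of which has a name in the sources used here. Of these g9777.t1 had a mean of 51.02 scaled TPM in mannitol at 60 min, 9.67 in NaCl at 60 min and 3.51 in NaCl at 24 h, against 29.7 at 0 h.

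Other genes of the flagellum were taken from the study's phosphoproteome and mutant lists, 21 genes annotated mainly as flagellar associated proteins (FAP), of which 19 had a row and were tested. In NaCl at 24 h against control 0 h, 9 of the 19 were lower (4.79% of all transcripts) and 0 higher (6.83%), with a median of -0.92, while the 8 IFT members had a median of -1.75. At 60 min the count was 7 of 19 lower in NaCl (15.4% of all transcripts, list median -0.43) and 4 of 19 higher in mannitol (17.6% of all transcripts, list median 0.57). Between NaCl and mannitol at 60 min 9 of 19 were lower in NaCl (14.1% of all transcripts), with a median of -1.15.

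These 19 were less uniform than the IFT members. Their r with the IFT mean profile ran from -0.83 to 0.984 with a median of 0.870, highest for FAP56 and lowest for FAP269. FAP56 had a mean of 3.67 scaled TPM in NaCl at 24 h against 13.6 at 0 h (log2 fold change -1.65, adjusted p = 1.65e-04), whereas FAP269 had 114 against 79.8 (0.46, adjusted p = 0.183). No test of the difference between the lists was made.

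Of 3 other transport genes on those lists, 1 had a row, Cre17.g730950, annotated as a kinesin motor protein. It was higher at 60 min in both osmolytes, with means of 45.9 scaled TPM in NaCl and 100 in mannitol, against 19.7 at 0 h (log2 fold change 1.22, adjusted p = 0.00139, and 2.28, adjusted p = 5.65e-05). Of all transcripts, 13.6% were called higher at 60 min in NaCl and 17.6% in mannitol. At 60 min of NaCl against 0 h, where all 8 IFT members had negative log2 fold changes, the kinesin transcript was thus called in the opposite direction. It was already called higher at 30 min of NaCl (1.72, with 11.8% of all transcripts called higher). Like the members, it was lower at 60 min than at 30 min of NaCl (-0.50) and lower in NaCl than in mannitol at 60 min (-1.06), though neither was called. Its r with the IFT profile was 0.647.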

How the data were processed

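Cells of the wild-type strain were sequenced as single-end reads of 75 bases from Kapa mRNA HyperPrep libraries. The authors mapped reads with BWA to version 5.6 of the genome and used DESeq2 for their own comparisons; how the deposited TPM values were made is not given in the sources used here. Every library sums to 1000000 TPM, so depth is unknown and no counting interval can be given; 1 line without values was left out.

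TPM was divided by median-ratio factors from the 10428 transcripts above 0 in all 45 libraries. Tests ran on log2(scaled TPM + 1), so that folds of low transcripts are understated, with limma 3.58.1 in R 4.3.3 (empirical Bayes with trend and robust options) on the 2 groups of each of 25 comparisons, over the 13651 transcripts with TPM of 1 or more in at least 3 libraries, with Benjamini-Hochberg adjustment over all of them. The script was tested on simulated data. Called means adjusted p below 0.01 and fold change above 2. Tables were handled in Python 3.11.15 with pandas 2.3.3 and drawn with matplotlib 3.10.9.

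Members were named in the order IFT-B1, IFT-B2, IFT-A; per-library values stand for at most the 2 largest and 2 smallest called changes of a comparison and for members near a limit, a choice made with the values known. The transcripts most like the members were taken by correlation over the 14 group means. Members and lists were chosen with earlier results of these data known. Libraries of a group correlated at 0.959 to 0.991 over 52 pairs, and 0 pairs were identical.

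Replicate numbers were taken to pair libraries where deviations from the group means correlated above 0.1 in every pair. This held for NaCl against mannitol at 60 min, 4 h, 6 h and 24 h (lowest r 0.122), for 3 of 4 steps within an osmolyte and between the controls. The rule did not ask whether another number correlated more. It did so for replicate 2 of NaCl against mannitol at 4 h and 6 h, and by a very small margin for replicate 1 at 4 h. Between the controls this was so for replicates 3 and 4, in the steps from 60 min to 4 h for replicate 1, and in the NaCl step for replicate 2 as well. The second-series libraries correlated most with their own number in all of these. The alternatives were TPM as deposited, quantile normalization, another pseudocount, other filters and thresholds, other fits, blocks for replicate or library series, all 9 control libraries, the first series alone (chosen after seeing the data) and each library left out.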

Additional observations from a re-analysis of the deposited data

Results flagged for a closer look

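In control 0 h, where 5 libraries allow a check for a single library far from the others, IFT140 had 5.82 scaled TPM in replicate 5, while the other 4 libraries had 13.8 to 16.8. In control 24 h, with 4 libraries, IFT81 had 23.2 scaled TPM in replicate 5 and 12.1 to 12.4 in the other 3. Both libraries belong to the second series. The 2 stand among 16 checks of a member in a control group, and such a check marks about 1 in 20 groups by chance.

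NaCl and mannitol, each set against the same starting culture, differed by a direct limma test of NaCl against mannitol at the same time (adjusted p below 0.01 over all transcripts, log2 fold change beyond 1). At 60 min this was so for all 8 members, with log2 fold changes of -1.32 for IFT88, -1.53 for IFT81, -1.22 for IFT74, -2.28 for IFT52, -2.55 for IFT172, -1.54 for IFT80, -2.27 for IFT57 and -1.25 for IFT140. At 24 h it was so for 5 members, with -1.55 for IFT81, -1.30 for IFT74, -1.35 for IFT52, -1.98 for IFT80 and -1.35 for IFT57. The first 8 differences were negative in both library series.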

How the results depend on the processing

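Of 53 called changes of a member in a comparison, 0 changed direction under any alternative. Of the 53, 47 were lost at a log2 fold change over 2, 27 without a filter on low values and 4 with TPM as deposited. TPM as deposited moved the most medians: members' median log2 fold changes against control 0 h became 0.20, -0.41, -1.58, -1.56, -2.08 and -2.24 in NaCl at 15 min, 30 min, 60 min, 4 h, 6 h and 24 h, 0.074 in mannitol at 60 min and -0.53 at 24 h, and -0.68 for control 24 h. NaCl against mannitol gave 0.18 at 15 min and -0.85 at 30 min, and the steps gave 0.036 (NaCl 4 h), -0.33 (mannitol 60 min) and -0.26 (mannitol 4 h). TPM as deposited called 8 members lower at NaCl 60 min, 1 at mannitol 6 h, 1 for NaCl against mannitol at 30 min and 1 in the mannitol 4 h step, and 0 higher at mannitol 60 min. Shares of all transcripts called under the alternatives are not given in this section. Quantile normalization moved medians to -0.018 at NaCl 30 min, 0.40 at mannitol 60 min, 0.27, -0.55 and -1.33 for NaCl against mannitol at 15, 30 and 60 min, -1.14 in the NaCl 60 min step and -0.10 and -0.46 in the mannitol 60 min and 4 h steps, and called 5 lower at NaCl 60 min.

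Without a filter on low values, which adds transcripts to the adjustment, fewer members passed: 2 at NaCl 4 h, 4 and 0 for NaCl against mannitol at 60 min and 24 h, 2 for NaCl 24 h against control 24 h, 1 in the NaCl 60 min step and 0 in the mannitol 4 h step. A mean TPM of 5 or more called 1 lower at mannitol 6 h, and 2 and 1 for NaCl against mannitol at 4 h and 6 h. At a log2 fold change over 2, 0, 0, 2 and 1 passed in NaCl at 60 min, 4 h, 6 h and 24 h, 0 in mannitol at 60 min, 3 and 0 for NaCl against mannitol at 60 min and 24 h, and 0 for NaCl 24 h against control 24 h and in both steps with calls. A pseudocount of 0.1 moved the median of NaCl against mannitol at 60 min to -1.63.

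The replicate block called 5 and 4 for NaCl against mannitol at 4 h and 6 h, and 0 for NaCl 24 h against control 24 h, where only 2 numbers are shared and do not pair the libraries. The series block called 1 lower at mannitol 6 h, and 5 and 4 for NaCl against mannitol at 4 h and 6 h; the joint fit called 2, 5 and 4. The replicate block took the call from 9 of the 53, in comparisons whose numbers did not pair the libraries. The first series alone called 1 higher at NaCl 30 min and 3 lower for NaCl against mannitol at 4 h, with medians of -1.64 for that contrast at 60 min and -1.52 in the NaCl 60 min step.

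With each library left out, calls lower ranged over 2 to 4, 2 to 6, 6 to 8 and 7 to 8 in NaCl at 60 min, 4 h, 6 h and 24 h, 6 to 8 and 0 to 2 for NaCl against mannitol at 60 min and 24 h, 4 to 6 for NaCl 24 h against control 24 h and 3 to 6 in the NaCl 60 min step. Calls higher ranged over 0 to 1 at NaCl 30 min. At NaCl 4 h, 3 or fewer were left without NaCl replicate 1, 2 or 3 or without control replicate 2 or 3; for NaCl 24 h against control 24 h, 4 were left without NaCl replicate 2 or control replicate 2; in the NaCl 60 min step, 3 were left without NaCl 30 min replicate 2. The medians ranged from -1.61 to -1.45 and 0.24 to 0.48 for NaCl against mannitol at 60 min and 15 min, from -1.47 to -1.19 in the NaCl 60 min step and from 0.13 to 0.39 in the mannitol 60 min step. The cause of these shifts was not tested.

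With TPM alone depth is unknown, so the precision of a single low value, such as IFT80 at 1.45 scaled TPM, cannot be given.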
